A study of Mus musculus with 16 samples.

Results

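RNA of newborn mouse pups was compared between gestational N-acetylcysteine (NAC) and placebo in the libraries that held lung RNA by content. A library was kept when Sftpc, the surfactant protein C gene of alveolar type 2 cells, reached 1000 counts per 1000000 counts (CPM) and Alb, the albumin gene of hepatocytes, stayed under 1000 CPM. The libraries were thus chosen by these measured levels, which are given below as a description only. This rule kept 7 of the 16 libraries of the series. The NAC side held 3 of them, which were the library labelled lung of wild-type (WT) live pups, the library labelled lung of heterozygous (Het) live pups and the library labelled liver of Het dead pups. The placebo side held 4, labelled liver in WT live, Het live and null dead pups and labelled lung in Het dead pups. Each of WT live, Het live and Het dead pups therefore gave 1 pair of a NAC and a placebo library, and the null dead placebo library had no NAC partner. Pups were of the C57BL/6J strain and carried 0, 1 or 2 copies of a Man1a2 allele that lacks exon 2 in every cell. Their Man1a2 heterozygous parents, father and mother, took water as placebo or NAC at up to 1 g/kg of body weight from 1 week before breeding until delivery, and pups were observed every 8 h for 24 h. Live pups were killed at the end of observation, and the paper states that tissue of dead pups was taken at once upon death. It also reports that null pups of both treatments died within 1 h of birth. Age at collection thus differed between live and dead pups, and its part in the results was not tested. RNA of 3 experiments was pooled for each library, and of 2 experiments for Het dead pups, so that a group of pups with a given treatment was 1 library and only the 3 pup groups replicated the comparison. All 3 pairs were made of opposite tissue labels. NAC and the label lung went together in the live pairs, and NAC and the label liver in the Het dead pair, so that the treatment and whatever changed the labels cannot be told apart in any single pair.

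NAC is a cysteine donor from which cells make glutathione, the main small thiol antioxidant. The lung is the last major organ to take up its function at birth, when fluid is cleared from the air spaces, alveolar type 2 cells release surfactant and the flat alveolar type 1 cells stretch over the capillaries. Glucocorticoids drive much of this maturation through the glucocorticoid receptor, a nuclear receptor that binds a palindromic DNA element. Immediate-early genes are transcribed within minutes of a stimulus to a cell and need no new protein.

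Libraries held from 7236865 to 11808823 counts. Sftpc was at 4446 to 9257 CPM in the NAC libraries and at 7025 to 11760 in the placebo libraries, and Alb at 41.15 to 117.5 and 10.5 to 135 CPM. The closest library outside the rule, the null dead placebo library labelled lung, held Sftpc at 5553 and Alb at 9280 CPM, and in the other 8 libraries Sftpc did not pass 3.1 CPM. Nkx2-1, the transcription factor that specifies lung epithelium and which the rule did not use, was at 208 to 246 CPM, here scaled by trimmed mean of M-values (TMM), in the 7 libraries. All 12 genes of a lung identity list, which holds Sftpc, were detected in each. Detection alone does not set these libraries apart. The null dead NAC library labelled liver, outside the rule, also held all 12, at a summed 30.2 CPM against 11566 to 24619 CPM in the 7. A set of 12 hepatocyte genes summed to 255 to 592 CPM in the 3 paired placebo libraries, to 804 to 1466 in the NAC libraries and to 908 in the null library. Without Trf, the transferrin gene, the sums were 39.9, 311 and 55.7 CPM in the placebo and 166.5, 223 and 78.5 CPM in the NAC libraries of WT live, Het live and Het dead pups. Trf was thus the larger share of the sum in each of them but the Het live placebo library. These sums are in CPM with no further scaling, and gene levels from here on are TMM-scaled CPM. The ribosomal RNA precursor Rn45s took 4.048 to 19.67% of counts in placebo and 8.155 to 26.19% in NAC libraries. Xist, transcribed from the inactive X chromosome of females, was at 0.43 CPM in the Het dead placebo library and at 178 to 732 CPM in the other 6, so that this pool differed from the others in the sex of its pups. The other 6 were not alike either, with 691 CPM in the WT live placebo and 192 CPM in the WT live NAC library. Ddx3y, of the Y chromosome, passed as higher with NAC in the test over the 3 pairs below, though not without the WT live pair. The mix of sexes may thus differ between NAC and placebo. The part of these differences in the results was not tested.

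The targeted gene, Man1a2, encodes a Golgi mannosidase that trims N-glycans. It was at 94.8, 81.3 and 72.1 CPM in the placebo libraries of WT live, Het live and Het dead pups, at 60.9, 52.7 and 75.4 CPM in their NAC libraries and at 76.2 CPM in the null library. The lowest levels were those of the live NAC libraries, and the null library lay within the range of the others. The log2 fold change over the 3 pairs was -0.40 ± 0.18 (SE), with an adjusted p of 0.124 in edgeR's quasi-likelihood test. Without the Het dead pair it was -0.64 with an adjusted p of 0.0139 by the same test, and with scaling by library size alone -0.69 with 0.043. Counts were given per gene, so these levels do not separate transcripts with exon 2 from those without it and do not check the genotype.

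The 3 paired placebo libraries lay close together and apart from the NAC libraries. On the first principal component, which held 60.6% of the variance of 11325 genes, placebo libraries were at -33.0, -37.6 and -33.1 and NAC libraries at 25.8, 50.2 and 22.3 for WT live, Het live and Het dead pups. The null placebo library was at 5.5, between both sides. The second component, with 14.4% of the variance, spread the NAC libraries from -29.2 in Het dead to 23.9 in Het live pups.

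**Figure D1:**
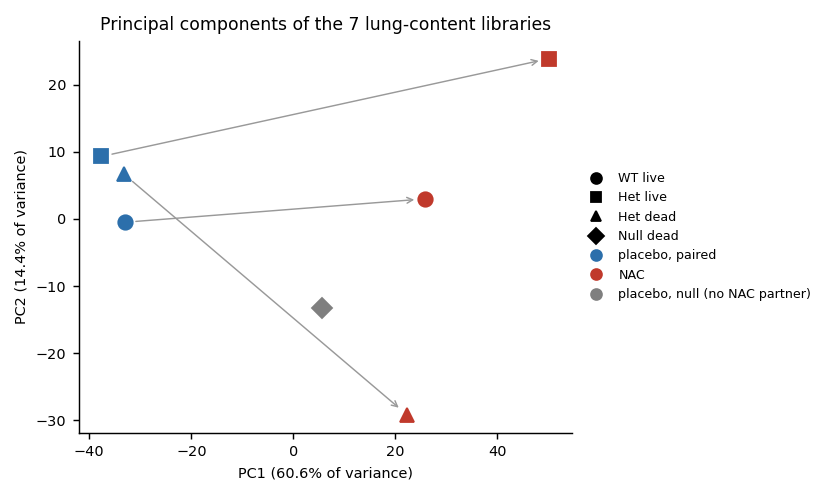
First and second principal components of log2 CPM in the 7 lung-content libraries, with percent of variance on each axis. Marker shape gives the pup group, blue paired placebo, red NAC and grey the null placebo library, and an arrow leads from placebo to NAC within each pair. The 3 placebo libraries lie together at the left, the NAC libraries at the right, and the null placebo library between them.

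Over the 3 pairs, 2034 of 14012 genes rose with NAC (14.5%) and 1587 fell (11.3%) at an adjusted p under 0.05, by a quasi-likelihood test in edgeR that compared NAC and placebo within pup groups. With scaling by library size alone the split was 816 higher and 2846 lower, because that scaling moved the median log2 fold change of all genes from -0.03 to -0.32, and directions below are relative to the TMM median. The shares of 14.5% and 11.3% are the background for the counts of every gene list below in this fit, and several counts lie near them. Counts from other fits have other backgrounds. Of all genes, 697 rose and 362 fell of 14059 without the Het live pair. Without the WT live pair it was 1243 and 760 of 13969, and without the Het dead pair 2317 and 1885 of 13987. With all 7 libraries and no pup group block, 1305 rose and 1008 fell of 13990. Changes of at least 2-fold were seen in 663 genes that rose and 734 that fell. In single pairs, with no test, a 2-fold higher level with NAC was found for 781 genes (5.57%) in WT live, 1316 (9.39%) in Het live and 936 (6.68%) in Het dead pups, and a 2-fold lower level for 1012 (7.22%), 2085 (14.9%) and 933 (6.66%). In all 3 pairs together, 282 genes (2.01%) were at least 2-fold higher and 259 (1.85%) at least 2-fold lower. The Het live pair contributed most to the calls. Without it 1059 genes passed, against 2003 without the WT live pair and 4202 without the Het dead pair. The NAC library of this Het live pair had the fewest counts of the 7, 7236865, and the largest share of Rn45s, 26.19%. Its TMM factor, 0.76, was the lowest in the fit. With Rn45s left out 3598 genes passed, and the part of these traits in the calls was not tested further.

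The null placebo library, of pups that by the paper's account died within 1 h of birth, did not enter the fit. Its level was nearer to the NAC mean than to the placebo mean for 1108 of the 2034 genes that rose (54.47%) and for 882 of the 1587 that fell (55.58%). On a scale with the paired placebo mean at 0 and the NAC mean at 1, its median position was 0.54 among genes that rose and 0.56 among those that fell. A fit of the 3 NAC against all 4 placebo libraries without the pup group block, called the 7-library fit here, gave 1305 genes that rose and 1008 that fell. When the log2 sum of the hepatocyte genes was added to it as a covariate, edgeR called 0 genes, with 1349 higher and 979 lower at an unadjusted p under 0.05, and 293 when Trf was left out of that sum. The full sum, which holds Alb and Trf, was higher in each NAC library than in each of the 3 paired placebo libraries. The null library, also in this fit, held 908.4 CPM, above the 803.5 CPM of the Het live NAC library. Sum and treatment thus went together in large part but not fully, and the fall to 0 cannot be assigned to either. In bulk RNA such as this, fewer cells of a type and less RNA per cell cannot be told apart.

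**Figure D2:**
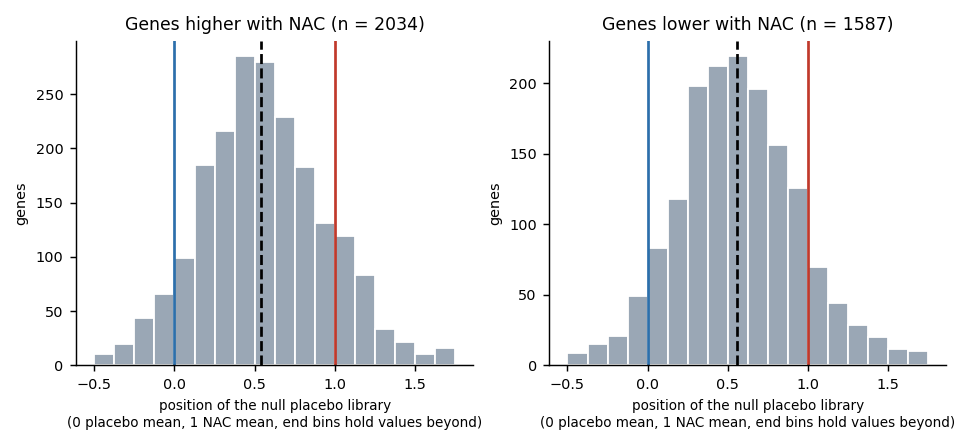
Number of genes by the position of the null dead placebo library on a log2 scale with the mean of the 3 paired placebo libraries at 0 (blue line) and that of the 3 NAC libraries at 1 (red line), for the 2034 genes that rose and the 1587 that fell. End bins hold values beyond the axis. The dashed medians, 0.54 and 0.56, lie about midway between both means.

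Among the genes with the highest fold changes were transcription factors, signaling genes and stress genes, many of them low with placebo. Zbtb16, a zinc finger factor, was at 20.8, 7.4 and 19.7 CPM in the placebo libraries of WT live, Het live and Het dead pups and at 272, 330 and 150 CPM in their NAC libraries, a log2 fold change of 3.96 ± 0.41 (SE, adjusted p = 0.000733). Atp6v0a4, a subunit of the proton pump of acid-secreting cells, went from 29.7, 19.0 and 24.1 to 263, 360 and 349 CPM (3.73 ± 0.23, adjusted p = 0.000113). Neither gene overlapped between the paired placebo and the NAC libraries. The null library, however, was nearer to the NAC libraries, at 169 CPM for Zbtb16 and 234 CPM for Atp6v0a4, and in the 7-library fit neither passed. Rasd1, a small GTPase, rose by 4.07 ± 0.30, Il1r2, the decoy receptor of interleukin 1, by 3.77 ± 0.40 and Pak6, a kinase, by 3.45 ± 0.25, of which Pak6 did not pass in the 7-library fit. Nr4a3 (4.12 ± 0.59), Fosb (3.59 ± 0.58), Hspa1a (3.47 ± 0.69), the secreted inhibitor gene Wfikkn1 (3.48 ± 0.70) and the predicted gene Gm12070 (3.73 ± 0.68) completed the 10, and Hspa1a and Gm12070 did not pass in the 7-library fit. Wfikkn1 and Hspa1a had log2 ratios of 3.98, 4.21 and 0.41 and of 3.74, 5.46 and 0.94 in WT live, Het live and Het dead pairs. Wfikkn1 did not pass without the WT live or without the Het live pair.

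The 10 genes with the lowest fold changes had various roles. Gja5, the connexin of arterial endothelium, fell from 86.1, 69.8 and 76.7 CPM to 24.0, 5.14 and 15 CPM (-2.53 ± 0.30, adjusted p = 0.00122). Meox2, a homeobox factor of mesoderm and endothelium, fell from 74.6, 90.0 and 74.9 to 27.7, 4.43 and 13.4 CPM (-2.57 ± 0.41), and Shisa2 from 38.9, 44.3 and 31.7 to 10.6, 0.89 and 4.08 CPM (-3.01 ± 0.47). For each of these 3 genes the Het live NAC library was the lowest of all and the null library, at 38.2, 32.2 and 13.4 CPM, lay between both sides. Atp6v0d2 (-3.25 ± 0.47), another proton pump subunit, fell while Atp6v0a4 rose. Hpgd, which inactivates prostaglandins, fell by 2.46 on the log2 scale, Tnfsf10, a death receptor ligand, by 2.35, Lrrn3 by 2.46 and Prss35 by 2.38. Spp1 (-2.50 ± 0.43) and Cx3cr1 (-2.44 ± 0.60), both of macrophages, completed the 10.

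Known glucocorticoid target genes rose together. Of the 18 genes of this list that were tested, 15 rose and none fell, against 14.5% of all genes that rose, and the median log2 fold change was 2.09 against -0.03 over all genes. This list and those that follow were chosen with earlier results of these data known. Their counts and medians are therefore a description and not a test of a list. Fkbp5, a chaperone that limits receptor signaling, was at 48.1, 24.3 and 46.1 CPM with placebo in WT live, Het live and Het dead pups and at 280, 299 and 321 CPM with NAC. All NAC libraries were above all placebo libraries, the null library at 187 CPM included, and the log2 fold change was 2.97 ± 0.22 (adjusted p = 0.000194). Per1, a clock gene with a receptor site, was at 63.0, 44.6 and 72.2 CPM with placebo and at 507, 670.5 and 335 CPM with NAC, and Cdkn1a, an inhibitor of cell division, at 50.2, 46.4 and 63.8 and at 432, 553 and 390 CPM. They rose by 3.03 ± 0.29 and 3.09 ± 0.21. The null library held 307 CPM of Per1 and 213 CPM of Cdkn1a.

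Within the same list, Tsc22d3, which encodes the leucine zipper protein GILZ, rose by 1.89 ± 0.19, Klf9 by 2.37 ± 0.26 and Errfi1, a brake on epidermal growth factor receptor, by 2.16 ± 0.20. Pdk4, which turns off glucose oxidation, rose by 2.85 ± 0.39 and Fam107a, an actin binding protein, by 2.92 ± 0.43. Sgk1, a kinase that raises sodium uptake, was at 115, 122 and 226 CPM with placebo, at 372.4, 391.96 and 393 CPM with NAC and at 122 CPM in the null library, so that it was the Het dead placebo library that stood out on the placebo side. The fold change was 1.39 ± 0.20. Mt1, a metallothionein, rose by 1.22 ± 0.27, whereas Mt2 at 0.94 ± 0.34 did not pass (adjusted p = 0.0679). Tat, also called higher, had no more than 2 counts in any paired placebo library, and Nr3c1, the receptor gene itself, had a log2 fold change of 0.03 ± 0.15. By pair, the median of the list was 2.10 in WT live, 2.79 in Het live and 1.55 in Het dead pups. In the 7-library fit 9 of 18 rose and none fell, with Zbtb16, Fam107a and Mt1 among those that no longer passed. Lists of known targets share members, and Dusp1, Lcn2, Per1 and Sgk1 are counted again in the groups that follow. Aqp5, Vegfa, Chil3 and Wnt2 also count in more than 1 of the later groups.

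To show the element through which the receptor acts, promoters from RefSeq (GRCm38.p6, 250 bases before to 50 after each start) were searched for GNACANNNTGTNC, which reads the same on both strands. This search was chosen after the list above was seen. The element was in 156 of 32851 promoters (0.475%) and in 51 of the 13461 promoters of genes tested (0.379%). Of the 494 matched genes that rose at least 2-fold, 13 held it, in 14 of 646 promoters (2.17%). Of the 550 matched genes that fell at least 2-fold, 1 held it, in 1 of 698 promoters (0.143%). A gene can have more than 1 promoter, and the difference between these shares was not tested. Within the glucocorticoid target list, 16 of 18 genes matched, and 3 of them held it. These 3 genes and Jund, a gene of the next list, are shown with the element in capitals and the bases around it, as far as the start site, in lower case, 5′ to 3′ on the strand of the gene.
Sgk1, chr10:21993678-21993738, plus strand, element 188 bases before the start site: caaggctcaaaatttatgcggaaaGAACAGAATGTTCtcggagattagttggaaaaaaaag
Fam107a, chr14:8309861-8309921, minus strand, element 118 or 120 bases before either of 2 start sites: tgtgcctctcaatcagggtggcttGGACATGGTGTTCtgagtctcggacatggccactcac
Mt1, chr8:94178971-94179031, plus strand, element 94 bases before the start site: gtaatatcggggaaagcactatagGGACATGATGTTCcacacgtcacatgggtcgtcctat
Jund, chr8:70697684-70697738, plus strand, element 31 bases before the start site: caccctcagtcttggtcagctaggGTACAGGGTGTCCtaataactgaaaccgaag
Sgk1 has other start sites in the table, and the window belongs to 1 of them. No window overlaps an annotated exon. These are matches of letters in reference sequence, not measured binding.

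**Figure D3:**
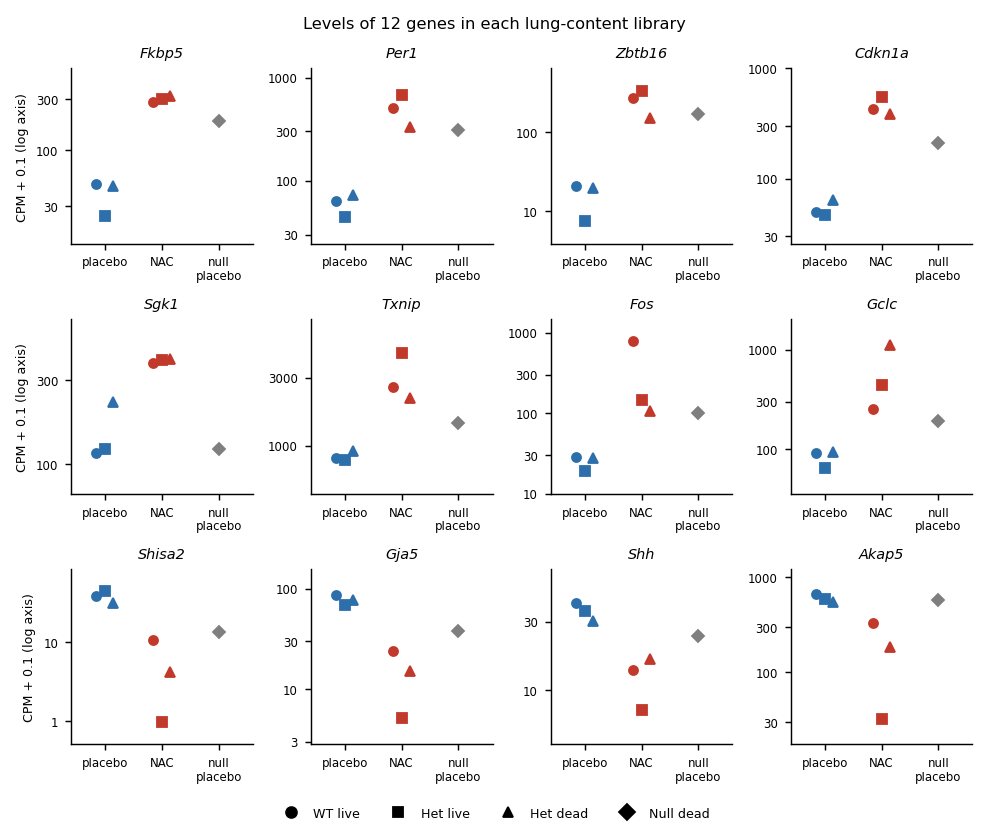
Levels of 12 genes in each of the 7 lung-content libraries, as TMM-scaled CPM with 0.1 added, on log axes that differ between panels. Each point is 1 library, its shape the pup group, with paired placebo in blue, NAC in red and the null placebo library in grey. For the genes of the upper 2 lines, from Fkbp5 to Gclc, all 3 NAC libraries lie above the 3 paired placebo libraries, and for Shisa2, Gja5, Shh and Akap5 below them.

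Immediate-early genes also rose. Of 27 tested, 18 rose and none fell, with a median log2 fold change of 1.29, and in 17 of 27 all NAC libraries were above all 4 placebo libraries, against 15.4% of all genes. Fos, a subunit of the AP-1 factor, was at 28.5, 18.9 and 27.4 CPM with placebo and at 778, 146 and 105 CPM with NAC. The WT live NAC library was far above the others, and the null library held 99.0 CPM. Jun, the partner of Fos, was at 238, 183 and 187 CPM with placebo and at 1469, 435 and 349 CPM with NAC, again highest in the WT live NAC library (1.58 ± 0.29). Fos rose by 3.22 ± 0.46, Atf3 by 2.43 ± 0.25, Dusp1, a phosphatase that ends MAP kinase signals, by 1.66 ± 0.17, Klf4 by 1.44 ± 0.16 and Jund by 1.29 ± 0.16. Egr1 did not pass (0.46 ± 0.54), with 38.5, 29.3 and 26.0 CPM with placebo, 204, 15.6 and 21.4 CPM with NAC and 141 CPM in the null library. With the null library included, 16 of 27 rose.

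Heat shock genes were divided. Of 20 tested, 6 rose and 2 fell, with a median of 0.33. The inducible chaperone Hspa1a was at 7.19, 5.63 and 9.53 CPM with placebo and at 100, 254 and 18.65 CPM with NAC, and its neighbour Hspa1b, whose near-identical sequence makes the division of reads between them uncertain, rose by 3.30 ± 0.59. The null library held 108 CPM of Hspa1a, within the range of the NAC libraries. Hspb1, a small heat shock protein, was more even, at 28.5, 31.4 and 32.8 against 171, 264 and 205 CPM (2.76 ± 0.17), with 103 CPM in the null library. Chordc1 and Fkbp4, co-chaperones of Hsp90, fell. The 7-library fit left 2 genes that rose and 1 that fell.

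Of 29 unfolded protein and integrated stress response genes, 8 rose and 1, Pdia4, fell. The median of the list was 0.10, and -0.18 with scaling by library size alone. Ppp1r15a, which restarts translation after stress, was at 51.4, 44.8 and 52.2 CPM with placebo and at 181, 210 and 177 CPM with NAC (1.93 ± 0.16), and Hspa5, the main chaperone of the endoplasmic reticulum, rose by 0.69 ± 0.15. Hspa5 did not pass without the Het live pair, where 3 genes of the list rose and none fell, and without the WT live pair 5 rose and none fell. Without the Het dead pair 9 rose and 5 fell.

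Genes of the circadian clock rose in 12 of 18 cases and none fell, with a median of 0.86. Activators and repressors moved the same way. Arntl, the activator BMAL1, rose by 0.90 ± 0.23, while the repressors Per2 (1.20 ± 0.15), Cry2 (1.87 ± 0.21) and Nr1d1 (2.59 ± 0.36) and the factor Nfil3 (2.56 ± 0.20) rose as well. Nr1d1 was at 13.2, 13.1 and 8.46 CPM with placebo and at 96.1, 144 and 20.3 CPM with NAC, with the Het dead NAC library well below the live ones and below the null library at 39.9 CPM. Ciart, a further repressor, rose by 1.69 ± 0.42. Without the Het live pair 7 of 18 rose, and Arntl and Ciart were not among them. Clock gene levels follow the hour of collection, which the labels do not give.

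Among 31 genes of a list of hypoxia-inducible factor targets, 11 rose and 1 fell, with a median of 0.53. The list also holds Hif1a and Epas1, which encode subunits of the factor itself, and Hif1a is among the 11. Ddit4, an inhibitor of the growth kinase mTOR, was at 25.9, 18.0 and 26.7 CPM with placebo and at 135, 183 and 125.2 CPM with NAC (2.63 ± 0.23), and 103 CPM in the null library. Slc2a1, the main glucose transporter, was at 28.5, 19.5 and 21.2 CPM with placebo and at 113, 73.6 and 207 CPM with NAC (2.38 ± 0.26), and 136 CPM in the null library. Bnip3, a mitophagy receptor, rose by 1.33 ± 0.14 and Hif1a by 0.67 ± 0.16. Vegfa, the vascular growth factor made by alveolar type 1 cells, was the member that fell, from 635, 616 and 569 to 358, 302 and 417 CPM (-0.77 ± 0.15). The null library held more Vegfa than any other, at 756 CPM. By the 7-library fit, 3 of the 31 rose and 1 fell. Slc2a1 and Bnip3 did not pass in it, nor Hif1a and Vegfa without the Het live pair.

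NRF2 is the transcription factor that answers oxidants, and its targets include the enzymes of glutathione synthesis. Of 38 NRF2 target and glutathione genes tested, 12 rose and none fell, yet the median was only 0.17 and became -0.12 with scaling by library size alone. Gclc, the catalytic subunit of the enzyme that limits glutathione synthesis, was at 91.8, 65.4 and 93.2 CPM with placebo and at 253, 441 and 1124 CPM with NAC. Its NAC libraries were all above the placebo libraries, the Het dead one most, and the null library held 195 CPM (2.6 ± 0.35, adjusted p = 0.00215). Gpx3, a secreted glutathione peroxidase, was at 179.5, 101 and 331 against 925, 577 and 971 CPM (2.14 ± 0.20). The null library, at 870.0 CPM, was within the NAC range of Gpx3, which did not pass in the 7-library fit. Txnip, the inhibitor of thioredoxin, was at 815, 797 and 917 against 2582, 4494 and 2170 CPM (1.79 ± 0.22). Prdx6, a peroxidase of surfactant lining cells, rose by 1.18 ± 0.15 and Txnrd1, thioredoxin reductase, by 1.15 ± 0.24.

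Other genes of this group did not pass, among them Hmox1 (0.29 ± 0.22) and Nfe2l2 (-0.01 ± 0.32), which encodes NRF2 itself. Srxn1, sulfiredoxin, was at 11.5, 14.2 and 13 CPM with placebo and 15.8 and 11.9 CPM in the live NAC libraries, but at 191 CPM in the Het dead NAC library. Of 20 tested genes of sulfur amino acid metabolism, through which NAC sulfur also runs, 4 rose and none fell, against 14.5% and 11.3% of all genes. The median was 0.24, or -0.05 with scaling by library size alone. Cbs, which starts the conversion of homocysteine to cysteine, was at 2.79, 1.10 and 2.57 CPM with placebo and 9.03, 4.79 and 7.06 with NAC (1.70 ± 0.32), and Cth, the next enzyme, rose by 0.97 ± 0.28. In the 7-library fit neither passed, and 1 of the 20 genes rose. The NRF2 list then held 8 genes that rose, and 7 without the Het live pair, when Txnrd1 did not pass. Leaving out the WT live or the Het live pair left 2 sulfur genes that rose.

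Neutrophil granule genes were higher. Of 15 tested, 8 rose and none fell, with a median of 0.82. S100a8, an abundant neutrophil protein, was at 33.5, 46.1 and 43.1 CPM with placebo, at 66.1, 76.9 and 72.3 CPM with NAC and at 41.0 CPM in the null library (0.82 ± 0.15). Mpo, myeloperoxidase, was at 0.53, 1.21 and 0.64 against 2.06, 6.38 and 6.07 CPM (2.51 ± 0.44), and Mmp8, the neutrophil collagenase, rose by 1.77 ± 0.20. Neither S100a8 nor Mpo overlapped between NAC and placebo libraries. With the null library included, 6 of 15 rose.

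Of 20 macrophage genes, 2 rose and 7 fell, with a median of -0.53. The receptors Siglecf and Itgax, both of alveolar macrophages, were at 3.79, 2.43 and 1.07 and at 15, 7.18 and 8.25 CPM with placebo and at 0.91, 0.18 and 0.22 and at 2.40, 1.77 and 2.43 CPM with NAC. They fell by 2.43 and 2.17 on the log2 scale, and Mrc1, the mannose receptor, by 0.90. The pairs differed, with list medians of -0.52 in WT live, -1.39 in Het live and 0.56 in Het dead pups. Without the Het live pair 3 rose and 3 fell, and Siglecf and Mrc1 did not pass, and in the 7-library fit 1 rose and 3 fell. Without the WT live pair 4 fell, and without the Het dead pair 11. Of 22 inflammation genes 4 rose, including Nfkbia, the inhibitor of NF-kB, at 64.9, 57.1 and 72.7 against 136, 172 and 168 CPM (1.28 ± 0.16), and 5 fell, including Il1a (-2.24 ± 0.66) and Il1b (-1.47 ± 0.40). By the 7-library fit, 3 of 21 rose and none fell, and Il1a and Il1b did not pass without the Het live or without the WT live pair, when 2 genes rose and none fell and 4 rose and 1 fell. Nfkb1 had a log2 fold change of 0.10 ± 0.14. Among 25 interferon response genes 1 rose and 2 fell, and in the 7-library fit none rose and 1 fell.

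Red cell genes rose in 6 of 16 cases and none fell, with a median of 0.28, or -0.01 with scaling by library size alone. Slc4a1, the anion exchanger of red cells, was at 51.0, 47 and 42.0 CPM with placebo, at 125.3, 113 and 293 CPM with NAC and at 122 CPM in the null library (1.78 ± 0.28). In the 7-library fit 1 of 16 rose, and without the Het live pair 2. The summed CPM, not TMM-scaled, of the 18 red cell genes in the table overlapped, at 16944 to 36680 CPM with placebo and 16881 to 30522 CPM with NAC. Of 11 hepatocyte genes 4 rose, among them Trf and Alb, of which Alb was used to choose the libraries. The list median was 0.92, and it was 2.36, -0.30 and 0.64 in the WT live, Het live and Het dead pairs. In the 7-library fit 0 of the 11 rose by edgeR, and without the WT live pair 1 rose and 1 fell. Of 16 heart and 11 skeletal muscle genes, 1 of each rose and none fell, and of 9 lymphoid genes 1 rose and 1 fell. The skeletal muscle median was 0.815, with 1.615, 0.20 and 0.02 by pair in the same order. The heart median was -0.24. The part of admixed cells in the other results was not tested.

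Of 18 alveolar type 1 genes, 3 rose and 6 fell, against 14.5% and 11.3% of all genes, with a median of -0.37. Akap5, a kinase anchor of these cells, was at 660.5, 595 and 550 CPM with placebo and at 329, 32.6 and 183 CPM with NAC, lowest in the Het live NAC library (-2.16 ± 0.50). The null library held 575 CPM, as the other placebo libraries did. Cldn18, the tight junction protein of alveolar epithelium, fell from 762, 788 and 686 to 386, 311 and 345 CPM (-1.11 ± 0.14). Gprc5a rose (0.90 ± 0.13), as did the water channel Aqp5 (0.51 ± 0.16), which failed without any of the 3 pairs. In the 7-library fit 1 rose and 4 fell, and without the Het live pair 2 rose and 3 fell.

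Of 24 alveolar type 2 and surfactant genes 2 rose and 4 fell, against 14.5% and 11.3% of all genes, with a median of -0.22. The number that fell was 12 without the Het dead pair and 1 without the Het live pair. Slc34a2, the phosphate transporter of these cells, fell from 2285, 2154 and 2227 to 1133, 687 and 1741 CPM (-1.01 ± 0.21), though not without the Het live pair. Etv5, a factor that maintains type 2 cells, fell from 172, 183 and 164 to 103, 65.2 and 85.7 CPM (-1.06 ± 0.17). Sftpb, the surfactant protein needed for breathing, did not pass, at 2170, 1756 and 1758 CPM with placebo and 1371, 1769 and 3395 CPM with NAC. The list medians of the live pairs, -0.65 and -0.33, were below 0 and that of the Het dead pair, 0.32, above it. Of 16 secretory airway genes 5 rose and 3 fell, and in the 7-library fit 2 rose and none fell. Scgb1a1, the club cell marker, was level (0.02 ± 0.14), Scgb3a2 rose (0.66 ± 0.13) and Cyp2f2, a cytochrome P450 of club cells, fell (-0.86 ± 0.16), the latter pair not in the 7-library fit.

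Of 18 genes of fluid clearance and ion transport, 7 rose and 4 fell, with a median of 0.31. Among those that rose were Scnn1a, a subunit of the epithelial sodium channel (325, 280 and 334 against 794, 599 and 492 CPM, 0.98 ± 0.17), Atp1b1, a subunit of the sodium pump (387, 335 and 482 against 1058, 1238 and 1005 CPM, 1.46 ± 0.18), and Nedd4l, a ligase that removes the sodium channel (1.15 ± 0.16). The chloride channel Cftr fell from 36.4, 34.2 and 36.0 to 14.5, 15.2 and 33.2 CPM (-0.86 ± 0.25), and Slc26a9, a chloride transporter, by 1.17. Scnn1b, another subunit of the sodium channel, was among those that fell (-0.78 ± 0.21), while Scnn1a rose. The 7-library fit left 3 genes that rose and 3 that fell, without Scnn1a, Nedd4l and Cftr. Without the Het live pair 4 rose and 1 fell, and Cftr and Scnn1b did not pass.

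Of 27 motile cilium genes tested none rose and 1, Tppp3, a tubulin binding protein, fell from 161, 208 and 177 to 53.9, 69.7 and 97.9 CPM (-1.34 ± 0.18). At an unadjusted p under 0.05, edgeR had 0 genes higher and 1 lower, and DESeq2 called 0 higher and 1 lower. The null library held 67.9 CPM of Tppp3, within the NAC range, and in the 7-library fit Tppp3 did not pass and edgeR called 0 of 27. The list median was 0.13, or -0.16 with scaling by library size alone. Foxj1, the master factor of multiciliated cells, was at 46.3, 58.1 and 47.5 CPM with placebo and 65.7, 51.9 and 49.9 CPM with NAC (0.14 ± 0.17). The dynein heavy chains Dnah5 (0.01 ± 0.20) and Dnah11 (-0.01 ± 0.19) lay within the spread of the libraries. Of 38 genes of primary cilia and intraflagellar transport, none rose and 5 fell, a share near the 11.3% of all genes that fell (Ttc21b, Bbs7, Ift81, Ift52 and Cep290). The median was -0.43, and in 14 of 38 all NAC libraries were below the 4 placebo libraries, against 14.1% of all genes. Ttc21b, a subunit of the retrograde train, was at 17.9, 18.5 and 17.4 CPM with placebo and at 10.6, 4.96 and 6.4 CPM with NAC (-1.33 ± 0.25). Ift74 (-0.50 ± 0.20, adjusted p = 0.0918) and Arl13b (-0.04 ± 0.21), a small GTPase of the ciliary membrane, did not pass. The number that fell was 1 without the Het live pair, 3 without the WT live pair, 9 without the Het dead pair and 15 with scaling by library size alone.

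Lung transcription factors and morphogens changed in both directions, with 6 higher and 7 lower of 34, against 14.5% and 11.3% of all genes, and a median of -0.01. Hedgehog genes were among those that fell. Shh, the ligand from the epithelium, was at 39.99, 35.5 and 30.2 CPM with placebo and at 13.7, 7.27 and 16.3 CPM with NAC (-1.53 ± 0.25), the target and effector Gli1 at 42.1, 44.0 and 33.2 against 9.49, 11.2 and 13.1 CPM (-1.82 ± 0.21), and the receptor and target Ptch1 fell by 0.65. The null library held 23.6 CPM of Shh, between both sides, and 11.5 CPM of Gli1, within the NAC range. Bmp4 (-0.89 ± 0.20) and Wnt2 (-1.25 ± 0.28), growth factors of the distal tip and mesenchyme, fell. Foxf1, the factor of lung mesenchyme and endothelium, rose from 205, 220 and 247 to 328, 383 and 312 CPM (0.60 ± 0.15) and Notch1 from 135, 114 and 120 to 217, 283 and 215 CPM (0.94 ± 0.17). Ptch1, Bmp4 and Foxf1 did not pass without the Het live pair, when 3 genes rose and 5 fell, nor Ptch1 and Bmp4 in the 7-library fit, when 4 rose and 4 fell.

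Among 26 endothelial genes 7 rose and 4 fell, with a median of 0.23, or -0.07 with scaling by library size alone. Those that rose included Flt1, a receptor of vascular growth factor (80.7, 57.3 and 58.6 against 114, 121 and 130 CPM, 0.90 ± 0.17), and Pecam1, an adhesion protein of all endothelium (0.45 ± 0.14). Car4 and Kit, which mark subtypes of lung capillary cells, fell. They were at 68.9, 73.9 and 76.9 and at 97.7, 94.3 and 96.6 CPM with placebo and at 26.5, 28.2 and 47.7 and at 69.8, 60.1 and 49.1 CPM with NAC. Aplnr, the apelin receptor, fell by 0.77. The null library was lower than the other placebo libraries for Car4, Kit and Aplnr, at 34.7, 57.2 and 62.6 CPM, and in the 7-library fit none of the 4 fell. Without the Het live pair 1 endothelial gene rose and 3 fell, and Flt1, Pecam1 and Kit did not pass.

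Of 31 matrix and mesenchymal genes 8 rose and 10 fell, with a median of -0.03. Lox, the cross-linking enzyme of elastin and collagen, was at 246, 198 and 272 CPM with placebo and at 1284, 719 and 942 CPM with NAC (2.01 ± 0.16), but also at 938 CPM in the null library. Eln, elastin, rose by 1.03 ± 0.14, Col4a1, of basement membranes, by 1.41 ± 0.12 and Fn1, fibronectin, by 1.47 ± 0.15. Tnc, tenascin C, fell from 201, 213 and 173 to 67.4, 68.8 and 80.1 CPM (-1.44 ± 0.16), and Tagln, of smooth muscle, by 1.04. With the null library included, 2 rose and 6 fell, without Lox, Eln and Fn1, and without the Het live pair 6 rose and 6 fell.

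Of 30 cell cycle genes 1 rose and 5 fell, against 14.5% and 11.3% of all genes, with a median of -0.14. Those that fell were of DNA replication, Mcm2, Mcm3, Mcm5, Mcm6 and Tyms, with Mcm5 at 19.4, 20.3 and 23.5 against 9.60, 12.4 and 9.49 CPM (-1.02 ± 0.21). Mki67, a marker of dividing cells, was at 52.7, 56.7 and 48.5 against 61.7, 126 and 85.9 CPM (0.73 ± 0.19). By the 7-library fit, edgeR called 0 of the 30. Without the Het live pair none rose and 2 fell, and without the WT live pair 1 rose and 2 fell. Among 19 genes of the mannosidase step of N-glycans, 3 rose, a share near the 14.5% of all genes, and 1 fell, against 11.3%. The median was 0.10, or -0.19 with scaling by library size alone. Man2a1, the mannosidase that acts after Man1a2, rose from 120, 99.8 and 123 to 305, 269 and 192 CPM (1.14 ± 0.18), and Fut8, which adds core fucose, fell by 0.89. In the 7-library fit and without the Het live pair 1 rose and 1 fell.

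**Figure D4:**
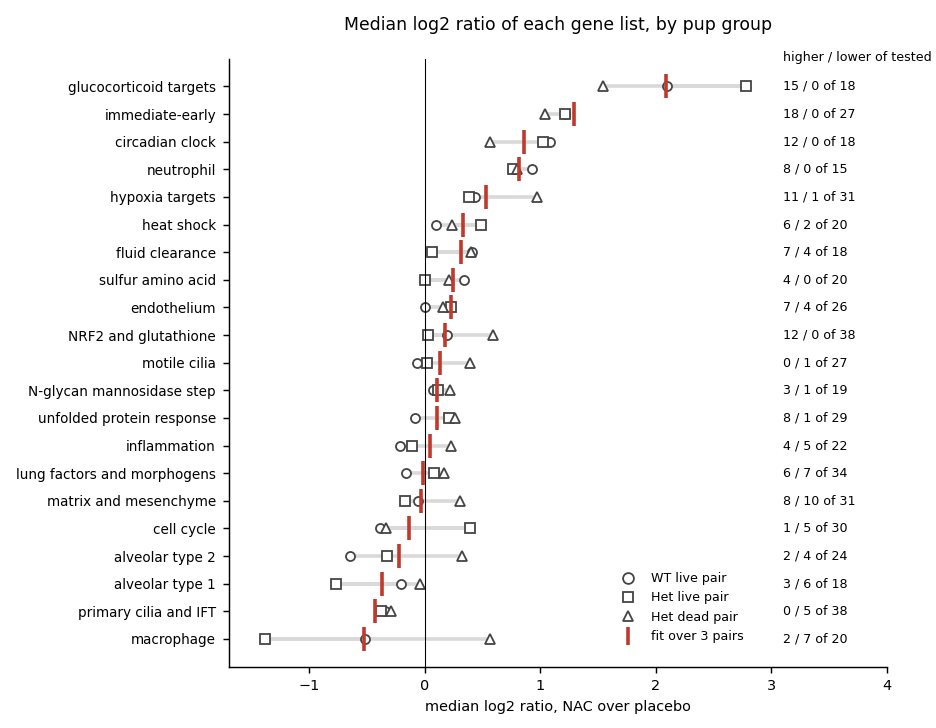
Median log2 ratio of NAC over placebo for 21 chosen gene lists. Lists not drawn include those of hepatocytes, at a median of 0.92, skeletal muscle, at 0.815, and heart muscle, at -0.24. Open circles, squares and triangles are the medians in the WT live, Het live and Het dead pair, red ticks the medians of the fit over the 3 pairs, and the numbers at the right count genes higher and lower at an adjusted p under 0.05 of those tested. Among the lists drawn, glucocorticoid targets lie highest, at 2.09, and macrophage genes lowest, at -0.53.

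The contrast of NAC with placebo was compared between the Het dead pair and the live pairs. The difference, dead minus live, was higher for 43 of 14012 genes (0.307%) and lower for 21 (0.15%) at an adjusted p under 0.05 in edgeR's quasi-likelihood test. DESeq2 called 30 genes. The dead side is 1 pair, whose spread was taken from the live pairs. Srxn1 differed by 3.75 ± 0.39 (SE, adjusted p = 0.000136), through the single Het dead NAC library described above. Cd74, the invariant chain of antigen presentation, was at 109 and 78.2 CPM with placebo and 55.7 and 34.7 CPM with NAC in WT live and Het live pups, but at 41.9 and 161 CPM in Het dead pups, a difference of 3.00 ± 0.32. Fst, follistatin, went the other way, from 1.86 and 1.44 to 19.8 and 7.98 CPM in live pups and from 11.1 to 5.63 CPM in Het dead pups (-4.02 ± 0.59). Xist differed by 9.43 ± 0.89, with the Het dead placebo library apart as given above. Rn45s differed by -2.10 ± 0.20, and was higher with NAC in both live pairs and lower in the Het dead pair. Nfe2l2 rose in Het dead pups, from 132 to 290 CPM, and was at 135 and 116 CPM with placebo and 73.6 and 95.7 CPM with NAC in live pups, a difference of 1.71 ± 0.32. Of the glucocorticoid targets, Pdk4 differed by -2.03 ± 0.36. Its NAC libraries were alike, at 97.3, 105.8 and 96.7 CPM, while the Het dead placebo library, at 33.2 CPM, was above those of WT live and Het live pups, at 10.2 and 6.84 CPM. Mt2 differed by 1.81 ± 0.35, with the Het dead NAC library at 97.1 CPM and the other 5 paired libraries at 18.5 to 24.5 CPM.

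The contrast was also compared with that in the 6 liver-content libraries of the same pup groups. The difference, lung-content minus liver-content, was higher for 318 of 14211 genes (2.24%) and lower for 304 (2.14%), 4.38% in either direction. In the liver-content libraries alone 4 of 12963 genes (0.0309%) rose. Adamts15, a matrix protease, was at 50.3, 42.4 and 39.4 CPM with placebo and at 383, 355 and 356 CPM with NAC in lung-content libraries, a log2 fold change of 3.05 ± 0.15, and -0.36 in liver-content libraries, a difference of 3.4 ± 0.23 (adjusted p = 0.000622). Fkbp5 differed by 3.11 ± 0.30, Ppp1r2, an inhibitor of protein phosphatase, by 2.31 ± 0.23 and Sphk1, sphingosine kinase, by 2.00 ± 0.20, with log2 fold changes of -0.13, -0.22 and -0.03 in liver-content libraries. Atp2b2, a calcium pump, was at 4.59, 5.19 and 3.21 CPM with placebo and at 0.23, 0.18 and 0.22 CPM with NAC in lung-content libraries. Its NAC libraries held no more than 2 counts, so that its fitted difference of -5.89 is no measure of size. Of the glucocorticoid targets 6 of 18 and of the immediate-early genes 1 of 27 differed between the contents. Without both Het live pairs no gene passed, with 866 genes higher and 985 lower at an unadjusted p under 0.05, and DESeq2 on all pairs called 1246 genes.

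**Figure D5:**
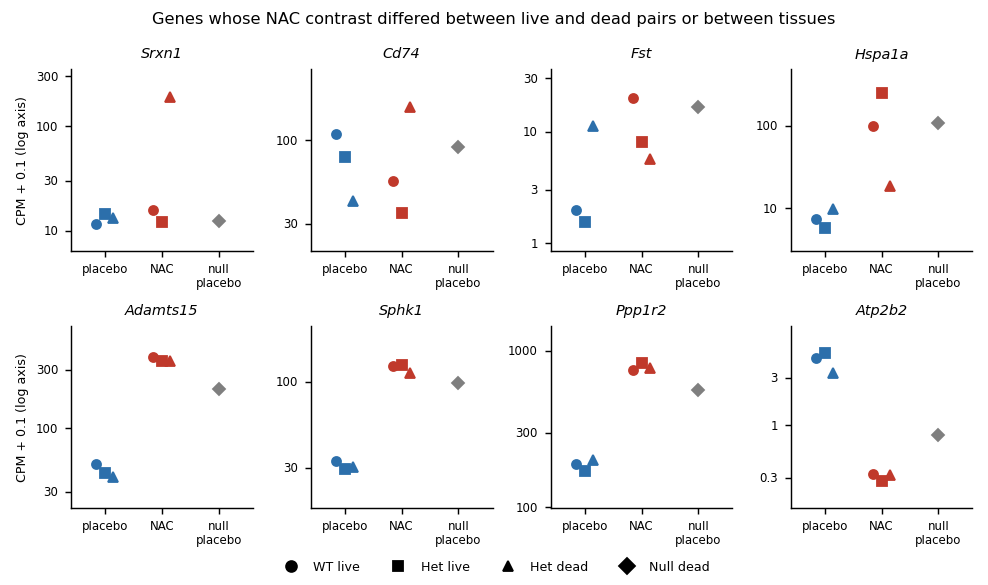
Levels of 8 genes in each of the 7 lung-content libraries, as TMM-scaled CPM with 0.1 added, on log axes, with markers as for the other genes. Srxn1, Cd74, Fst and Hspa1a differed in their NAC contrast between live and dead pairs, and Adamts15, Sphk1, Ppp1r2 and Atp2b2 between lung-content and liver-content libraries, of which only the former are drawn. For the lower 4 genes the NAC libraries lie together in all 3 pup groups.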

How the data were processed

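RNA was sequenced from pooled newborn lung and liver, 16 libraries in all. The authors deposited 1 table of estimated counts per gene symbol, not normalized, with 25054 rows. The submitters' notes name the genome build mm10, R 4.0.3 and edgeR 3.30.3, and the study's methods give alignment with the Omicsoft Sequence Aligner in Array Studio to the Ensembl mouse genome, from whose output uniquely mapped abundances were taken. Of the rows, 962 carried 1 of 329 repeated symbols and were kept apart. Values were rounded to whole counts, since a count test had been planned and the values were not all whole.

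Groups came from the labels, and the 7 libraries from the Sftpc and Alb rule. The members and gene lists were chosen with earlier results of these data known. The NAC contrast was tested in the 6 paired libraries with edgeR 4.0.16 (R 4.3.3), by its quasi-likelihood test with TMM scaling, a mean of at least 1 CPM, pup group as a block and Benjamini-Hochberg adjustment at 0.05. SE is the absolute log2 fold change divided by the square root of F. Contrasts between dead and live pups and between lung and liver content were interaction terms. Ratios in single pairs used a prior count of 2 and had no test. Pairing comes from the pup group, which the labels give, and pairs share no animals. Each library pooled pups, so p-values rest on how the NAC contrast varied from pair to pair, moderated over genes. They do not measure the spread between pups.

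Named genes were the 10 largest changes in each direction with a mean of at least 5 CPM and the same sign in all pairs, the 5 of smallest p in each interaction, and from the lists those that passed, the highest and the 2 largest changes, of which the text gives some. Other genes named in the text were chosen after their values were seen. Python 3.11.15, pandas 2.3.3, numpy 2.4.6 and matplotlib 3.10.9 were used for tables and figures, and DESeq2 1.42.0 as an alternative. On simulated counts with 200 genes changed by 2 on the log2 scale, the main contrast recovered 200 with 16 others of 13921, dead minus live 150 with 6 others of 13943, and lung minus liver content 198 with 14 others of 14159. The changed genes had a mean of at least 5 CPM, and all genes had the same dispersion. The change was equal in all pairs that carried it, unlike in the data, so these counts do not give the recovery in the data. Alternatives were other scalings, filters, tests, covariates, blocks and each pair left out. Depth, from 7236865 to 11808823 counts in the 7 libraries, limits genes of few counts. Genes with fewer than 3 counts on 1 side stayed in the tests and in the counts of calls.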

Additional observations from a re-analysis of the deposited data

Results flagged for a closer look

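Among the 4 placebo libraries, 1 library stood far from the other 3 for 19 of 132 genes examined. Chance gives about 1 in 20 groups, but that rate does not apply here, because most of these genes were chosen by the NAC contrast, whose fit held the other 3 placebo libraries and not the null library. In 17 of the 19 it was the null dead placebo library. It was the highest for Hspa1a (108 CPM), Hspa1b (109 CPM), Hspb1 (103 CPM), Atf3 (21.9 CPM), Hmox1 (29.2 CPM), Per2 (93.3 CPM), Pak6 (26.3 CPM), Adamts15 (211 CPM), Sphk1 (97.7 CPM) and Ppp1r2 (562 CPM). It was the lowest for Atp6v0d2 (2.81 CPM), Prss35 (6.89 CPM), Car4 (34.7 CPM), Aplnr (62.6 CPM), Kit (57.2 CPM), Bmp4 (28.3 CPM) and Slc26a9 (35.6 CPM). The Het dead placebo library was the highest for Sgk1, at 226 CPM, and the Het live placebo library for Foxj1, at 58.1 CPM.

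The NAC contrast differed between Het dead and live pups for 13 of the 132 genes examined, by the interaction term in edgeR's quasi-likelihood test, against 0.307% of all genes higher and 0.15% lower. Some of the 132 were chosen for the smallest p in this or the next contrast, so these counts are no measure of how common such differences are. Dead minus live, the log2 difference was 8.02 for Gm12070, 9.43 for Xist, 3.75 for Srxn1, 3.00 for Cd74, 1.81 for Mt2, 1.71 for Nfe2l2, 1.51 for Slc4a1 and 1.5 for Trf. It was -4.02 for Fst, -3.62 for Hspa1a, -2.10 for Rn45s, -2.03 for Pdk4 and -1.90 for Nr1d1. Gm12070 had no count in the Het dead placebo library, so its value depends on the prior count.

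The NAC contrast differed between lung-content and liver-content libraries for 32 of the 132 genes examined, by the same test, against 4.38% of all genes. Lung minus liver content, the log2 difference was 5.08 for Wfikkn1, 3.4 for Adamts15, 3.19 for Pdk4, 3.11 for Fkbp5, 3.08 for Rasd1, 2.84 for Gclc, 2.75 for Klf9, 2.71 for Pak6, 2.31 for Ppp1r2, 2.08 for Errfi1 and 2.00 for Sphk1. It was 1.86 for Gpx3, 1.77 for Sgk1, 1.70 for Atp1b1, 1.57 for Cbs, 1.57 for Man2a1, 1.44 for Klf4 and 1.28 for Prdx6. Genes with a lower contrast in lung-content libraries were Atp2b2 (-5.89), Siglecf (-3.25), Itgax (-2.88), Il1b (-2.80), Prss35 (-2.78), Tppp3 (-2.74), Spp1 (-2.61), Gja5 (-2.25), Tnc (-2.19), Hpgd (-2.11), Bmp4 (-1.47), Mcm5 (-1.34), Vegfa (-1.30) and Fut8 (-1.06).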

How the results depend on the processing

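Of 3621 genes called with pup group as a replicate block, the 7-library fit without the block called 2313, and 2152 genes were shared. With the summed hepatocyte level as a covariate and no block it was 0, with Trf left out of that sum 293, and with Trf left out and the block kept 1560, the latter 2 chosen after seeing the data. With Trf included, the sum was higher in each NAC than in each paired placebo library. The null library, also in that fit, lay above the Het live NAC library. Sum and treatment thus went together in large part, and the fall to 0 cannot be assigned to either. A fold limit of 2 left 1397. Leaving out 1 pair gave 1059 (Het live) to 4202 (Het dead), and 1046 of the 1059 were shared. Requiring a mean of at least 10 CPM gave 767, 1750 and 850 genes past 2-fold in WT live, Het live and Het dead pairs, against 1793, 3401 and 1869. Dead minus live called 64 genes, 30 by DESeq2 and 1 with the null library and no block. Lung minus liver content called 622 genes, 1246 by DESeq2, and 0 to 469 with 1 pup group left out, 0 being without Het live and 239 without WT live. Of 132 genes examined, 38 lost their call in the 7-library fit, 25 without the Het live pair, 13 without the WT live pair, 3 without the Het dead pair and 11 with scaling by library size alone, and none changed direction. Calls were gained by 5 genes without the Het dead pair, Man1a2 among them, by 1 without the WT live pair and by 2, Man1a2 among them, with scaling by library size alone. The cause was not tested. In the alternatives not named here the count stayed within 1.5 times. The block rests on pup group, and pups of a group with different treatment had different parents, so litter is not shared. Calls on genes with at most 2 counts on 1 side, such as Tat and Atp2b2, give no size of change.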
